A study of Mus musculus with 12 samples.

Results

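The proneural basic helix-loop-helix (bHLH) factors are described here in cultured mouse oligodendrocyte precursor cells (OPCs). The members were named by gene symbol, as the 9 genes Neurog1, Neurog2, Neurog3, Neurod1, Neurod2, Neurod4, Neurod6, Atoh1 and Ptf1a, out of 55536 annotated genes. Earlier results of these data were known when they were chosen. Each of the 9 had at least 1 read in the 12 libraries, but just 2 of them, Neurod1 and Neurog2, passed the filter on low counts that left 18995 genes for testing.

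Total RNA of primary OPCs was sequenced in 4 groups of 3 libraries. Control cultures (Ctr) received neither agent, EZH2i cultures received EPZ011989, a small molecule inhibitor of the H3K27 methyltransferase EZH2, at 1.5 μM over 4 days and renewed at intervals of 48 h, IFN-γ cultures received that cytokine at 100 ng/ml for 6 h, and the fourth group received the inhibitor for 4 days and then both agents for 6 h. All groups shared the same source and medium: OPCs from mouse pups aged 4 to 6 postnatal days, isolated by sorting for a Sox10-driven GFP reporter or by magnetic beads against CD140a, and grown with PDGF-AA and bFGF. The Sox10 reporter marks the whole oligodendrocyte lineage, several brains went into each experiment, and replicates came from different litters.

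Proneural factors are transcription factors that start and then carry forward neuronal differentiation. They bind DNA at E-boxes as dimers with ubiquitous E proteins, are held in check by ID proteins, which sequester the E proteins, and by HES and HEY repressors, which act downstream of Notch. Neurogenins (Neurog) act early in progenitors, NeuroD factors follow in differentiating neurons, Atoh1 specifies cerebellar granule cells and hair cells, and Ptf1a specifies inhibitory neurons of the cerebellum and spinal cord as well as pancreatic acinar cells. In OPCs, which use the related bHLH factors Olig1 and Olig2, these neuronal factors are normally silent, and many developmental regulators of this kind carry H3K27me3, the mark that EZH2 deposits.

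The members lie on 6 chromosomes in the GRCm38 build. Neurod1 spans chr2:79452521-79456751 on the minus strand, and Neurog2 spans chr3:127633135-127635631 on the plus strand. The Neurod1 gene overlaps the annotated bounds of Cerkl, on the same strand, and of the noncoding Gm26755, on the other. Cerkl never exceeded 9 counts and Gm26755 never exceeded 2 counts in a library, against up to 250 for Neurod1. Neurog3 overlaps Fam241b and Ptf1a overlaps Ptf1aos, in both cases on opposite strands, and the other members overlap no annotated gene.

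The promoters of the members differed in their density of CpG dinucleotides, the sequence feature that marks most promoters bound by Polycomb proteins. In windows of 300 bases around the RefSeq transcription start (GRCm38.p6), all 9 genes were matched, Neurod4 with 2 windows. Neurog1 held 32 CpG, Neurod1 26, Ptf1a 23, Atoh1 20, Neurog3 19, Neurod2 16 and Neurog2 10, while the windows of Neurod4 held 4 and 7 and that of Neurod6 held 3. The median of all 32851 windows was 7, with quartiles of 3 and 20, so 7 of the 9 genes lay above the median. The order of CpG content was not the order of expression: Neurog2, second in expression, had fewer CpG than Neurod2 or Ptf1a, which were close to 0 reads. The bases upstream of both the RefSeq start and the annotated gene span are shown for the members that carried the most reads, Neurod1 and Neurog2. They are also shown for Neurod6, which had 1 read in all, and each CpG is in capitals. They read 5′ to 3′ on the strand of the gene, and cover chr2:79456752-79456886 (minus strand), chr3:127632886-127633134 (plus strand) and chr6:55681264-55681513 (minus strand).
Neurod1: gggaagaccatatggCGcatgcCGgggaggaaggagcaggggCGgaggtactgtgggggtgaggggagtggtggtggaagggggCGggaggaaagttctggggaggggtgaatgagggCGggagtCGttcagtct
Neurog2: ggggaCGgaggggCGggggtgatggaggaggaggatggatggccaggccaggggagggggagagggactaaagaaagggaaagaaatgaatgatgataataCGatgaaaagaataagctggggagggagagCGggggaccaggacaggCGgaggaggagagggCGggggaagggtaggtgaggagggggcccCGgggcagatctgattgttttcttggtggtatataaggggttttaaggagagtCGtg
Neurod6: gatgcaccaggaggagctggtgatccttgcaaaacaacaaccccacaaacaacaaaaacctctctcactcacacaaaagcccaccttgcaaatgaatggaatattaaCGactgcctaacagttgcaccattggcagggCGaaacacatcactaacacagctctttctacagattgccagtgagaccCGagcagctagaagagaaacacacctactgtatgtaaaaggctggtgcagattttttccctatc
These stretches hold 6 CpG in 135 bases for Neurod1, 8 in 249 bases for Neurog2 and 3 in 250 bases for Neurod6. The annotated span of Neurod1 reaches upstream of its RefSeq start, so its stretch leaves out part of the window that holds 26 CpG. Searched on both strands over the 300-base windows, the E-box CANNTG, the sequence that bHLH dimers recognise, occurred at least once for Neurog1, Neurog3, Neurod1, Neurod2, Neurod6 and 1 of the Neurod4 windows, and it occurred in 72.3% of all windows. The form CATCTG, which is contained in CANNTG and is favoured by neurogenin and NeuroD dimers, was found only for Neurod2, against 17.2% of all windows. TATAAA was found for no member, against 13.6% of all windows, and TGGGAA, the core recognised by the Notch effector RBPJ, was found only for Ptf1a, against 25.6%. Only these sequences were searched, so near matches were not counted.

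**Figure D1:**
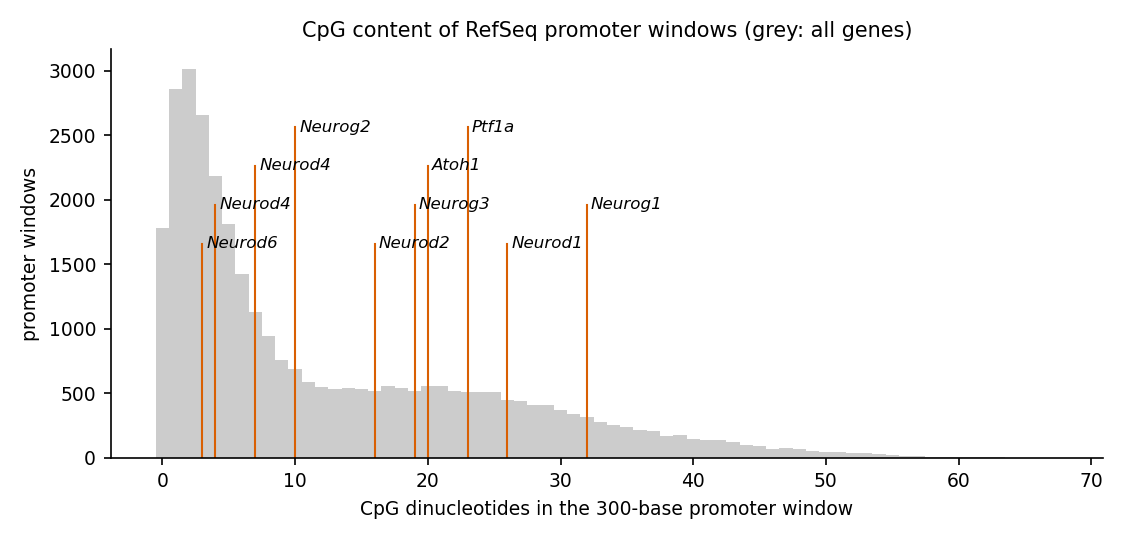
Number of CpG dinucleotides (x axis) in 300-base promoter windows of all RefSeq genes (grey bars, y axis: number of windows), with the members marked by orange lines. Neurog1 (32) and Neurod1 (26) lie far above the median of 7, whereas Neurod6 (3) and 1 window of Neurod4 (4) lie below it.

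Libraries held between 17403893 and 66546052 counts (median 33625908), with Ctr replicate 2 the shallowest. Replicates of a group differed by a chi-square of 32.05 to 170.86 per gene, so none was deposited in duplicate. OPC markers were abundant in every library, with the summed TPM of 8 markers between 936 and 1738, and the summed TPM of 6 microglial markers never exceeded 0.701. Oligodendrocyte markers were abundant too and lower in the sum with the inhibitor (8 genes, 946 to 1133 TPM in Ctr and 640 to 1074 in EZH2i, 913 to 1268 with IFN-γ and 512 to 893 with both agents), with median log2 fold changes of -0.52 without and -0.56 with IFN-γ and 0 of 8 called. Astrocyte markers were higher in the sum with the inhibitor (6 genes, 166 to 411 TPM in Ctr and 366 to 568 in EZH2i), with 0 of 6 called. Among all genes tested, 0.405% were called higher and 0 lower for EZH2i against Ctr. The part of the oligodendrocyte and astrocyte markers in the proneural counts was not tested. In bulk RNA, a change in the number of cells that express a gene cannot be told apart from a change in the RNA per cell. The inhibitor acts on the EZH2 protein, so its RNA checks no label. Ezh2 stood at 49.4 ± 5.21 CPM in Ctr and 39.6 ± 7.66 in EZH2i (SD, n = 3; adjusted p = 0.806), and Sox10, which defines the lineage, at 459 ± 162 and 343 ± 158 CPM (adjusted p = 0.974, both edgeR with Benjamini-Hochberg adjustment).

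Reads of the proneural genes were found mostly with the inhibitor. The 6 libraries without EZH2i held 194 reads of the 9 genes and the 6 libraries with it held 1320, although the latter were less deep in total (222437646 against 239646885 counts). Between 2 and 4 of the 9 genes had a read in any library without the inhibitor, and between 5 and 8 in any library with it. The matching share of all genes was not worked out, for these counts or for those of the rarer members below. They therefore do not show whether the pattern is particular to the members. Neurod1 provided 72.9% of the reads with the inhibitor and 46.4% of those without. Per length, averaged over the 12 libraries, Neurod1 was at 0.804 TPM, Neurog2 at 0.288, Neurog1 at 0.0873, Atoh1 at 0.0197, Neurod4 at 0.00706 and the other members at 0.0044 or less. Even the most abundant of these genes thus remained low, given that Olig2 in the same libraries averaged 85.1 to 142 TPM by group.

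**Figure D2:**
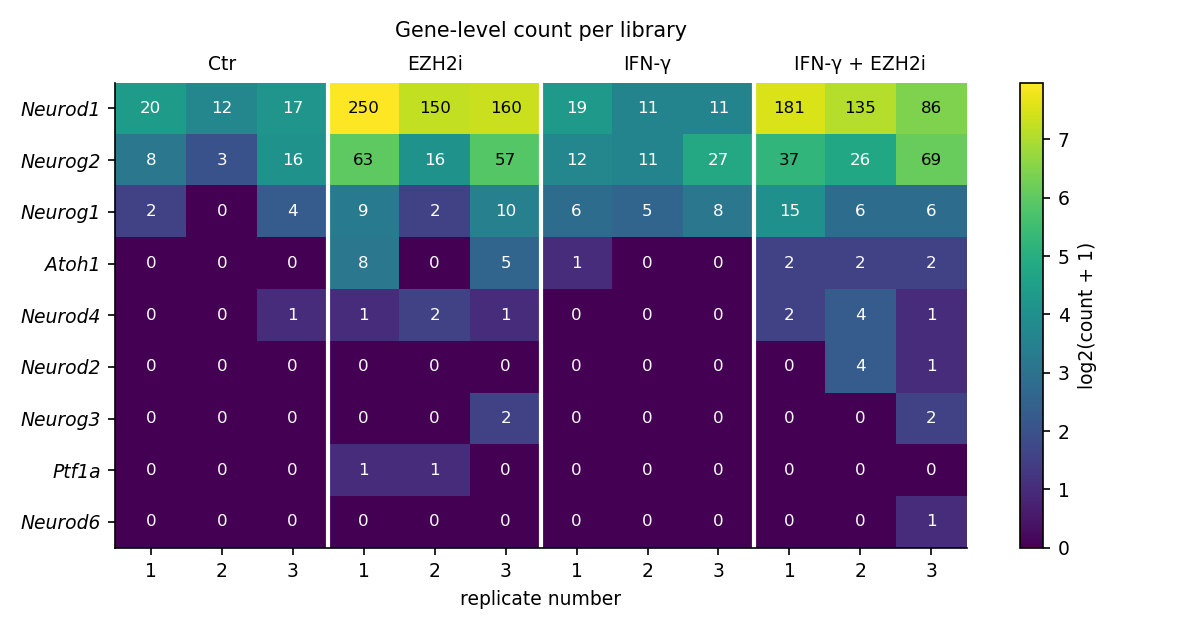
Gene-level read counts of the 9 members (rows) in each of the 12 libraries (columns, by group and replicate number). Colour gives log2(count + 1) and the printed number is the count, and reads of Neurod1 rise from 11 to 20 without the inhibitor to 86 to 250 with it, while Neurod2, Neurog3, Ptf1a and Neurod6 have no read without it.

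Neurod1, which drives terminal differentiation of neurons and of endocrine cells, was the member with the highest levels. Ctr libraries had 0.709, 0.678 and 0.288 CPM (library-scaled counts after TMM normalization) in replicates 1, 2 and 3, and EZH2i libraries had 8.94, 4.11 and 2.43. With IFN-γ the values were 0.637, 0.293 and 0.170 without the inhibitor and 7.73, 4.10 and 2.14 with it. Every library with the inhibitor was above every library without it. The share of all genes separated in this way over the 12 libraries was not worked out, here or for Neurog2 below. In each of the 4 groups replicate 1 was the highest and replicate 3 the lowest.

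In IFN-γ-treated OPCs, Neurod1 rose with the inhibitor from 0.366 ± 0.242 to 4.66 ± 2.84 CPM (SD, n = 3), a fitted log2 fold change of 3.73 (SE 0.68, 13.3-fold). The adjusted p was 0.0444 (edgeR quasi-likelihood test, Benjamini-Hochberg adjustment over 18995 genes), and 0.347% of all genes tested were called higher in this comparison. Neurod1 ranked 66th by p among all genes. The 3 ratios between libraries with the same replicate number were close to one another, at 12.1, 14.0 and 12.6. Here replicate numbers pair the libraries, and with the replicate as a block the adjusted p was 1.18e-05, where 3.11% of genes were called higher.

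The call without the block was narrow. The adjusted p over all alternatives ranged from 1.92e-06 (DESeq2, which called 1.34% of genes higher) to 0.252, while the log2 fold change stayed between 3.15 and 4.35. It remained under 0.05 without EZH2i replicate 1 (0.0421), EZH2i replicate 3 (0.0474) and replicate 3 of the combined group (0.0349). It passed 0.05 without Ctr replicates 1, 2 and 3 (0.0653, 0.0763 and 0.0610), without EZH2i replicate 2 (0.0840), without IFN-γ replicates 1, 2 and 3 (0.111, 0.252 and 0.205), and without replicates 1 and 2 of the combined group (0.122 and 0.154).

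In OPCs without IFN-γ, the Neurod1 level was 0.558 ± 0.234 CPM in Ctr and 5.16 ± 3.38 in EZH2i (SD, n = 3), a log2 fold change of 3.26 (SE 0.67, 9.60-fold). This missed the threshold in edgeR (adjusted p = 0.0706, Benjamini-Hochberg), where 0.405% of all genes were called higher. DESeq2 called it (adjusted p = 6.48e-05) together with 1.64% of all genes, and edgeR without the filter on low counts did as well (adjusted p = 0.0158). Over all alternatives the adjusted p ranged from 3.35e-05 to 0.259. The ratios between libraries of the same number were 12.6, 6.07 and 8.42. The groups did not overlap, which was so in the same direction for 7.37% of all genes tested without IFN-γ and for 6.08% with it.

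IFN-γ itself left Neurod1 within the spread of replicates. The log2 fold change of IFN-γ against Ctr was -0.61 (SE 0.71, adjusted p = 0.737, edgeR with Benjamini-Hochberg adjustment, where 6.65% of genes were called higher), and that of both agents against EZH2i was -0.15 (SE 0.58, adjusted p = 0.961, with 5.9% of genes called higher). In both cases the ranges overlapped. The interaction of the agents was 0.47 (SE 0.91, adjusted p = 1.00), and edgeR and DESeq2 called 0 genes for this term, with 127 genes at an unadjusted p under 0.05 in edgeR. The order of the group means was EZH2i, both agents, Ctr and IFN-γ, in which the first pair and the last pair did not differ beyond their spread.

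**Figure D3:**
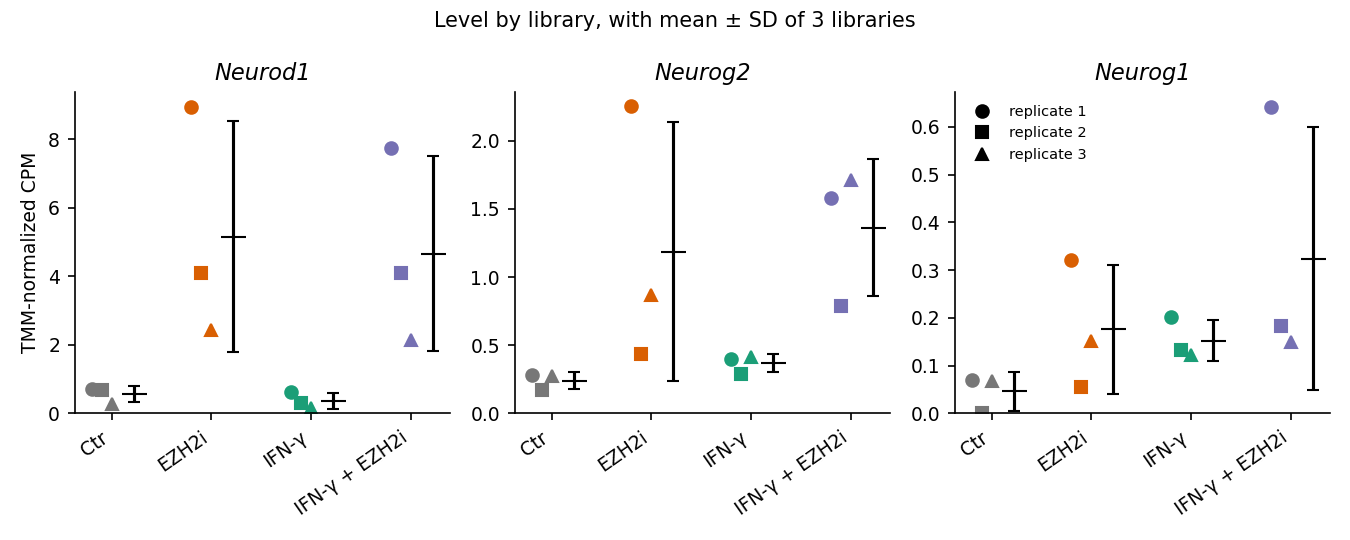
TMM-normalized CPM (y axes, each gene on its own scale) of Neurod1, Neurog2 and Neurog1 in each library of the 4 groups (symbols: replicate number), with the mean and SD of 3 libraries as black bars. Neurod1 spans 2.14 to 8.94 CPM with the inhibitor and 0.170 to 0.709 without it, and Neurog1 overlaps between libraries with and without the inhibitor.

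Neurog2, which commits progenitors of the dorsal forebrain and of sensory ganglia to a neuronal fate, came second. Its levels were 0.284, 0.169 and 0.271 CPM in Ctr and 2.25, 0.438 and 0.865 in EZH2i. They were 0.402, 0.293 and 0.417 CPM with IFN-γ and 1.58, 0.790 and 1.71 with both agents. The lowest library with the inhibitor, EZH2i replicate 2, was just above the highest without it, at 0.438 against 0.417 CPM, and it rested on 16 reads.

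The mean of Neurog2 was 0.241 ± 0.0627 CPM in Ctr against 1.19 ± 0.948 in EZH2i (log2 fold change 2.21, SE 0.58), and 0.371 ± 0.0676 with IFN-γ against 1.36 ± 0.50 with both agents (1.86, SE 0.54; SD, n = 3 each). Neither difference passed the threshold in edgeR with Benjamini-Hochberg adjustment (adjusted p = 0.184 and 0.313). With the replicate block the comparison under IFN-γ was called (adjusted p = 0.0193), with ratios between libraries of the same number of 3.93, 2.70 and 4.12. The same block fit called the comparison without IFN-γ (adjusted p = 0.0150), with ratios of 7.94, 2.59 and 3.19. There the number was not taken to pair the libraries. DESeq2 called the comparison without IFN-γ (adjusted p = 0.0262) and not the other (0.0805). Just 2 libraries without the inhibitor reached the level that the filter asks for, and 3 were needed, so that Neurog2 was tested only because of its level with the inhibitor. Neurod1 reached it in 4 libraries without the inhibitor.

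For IFN-γ alone, Neurog2 was slightly above Ctr in each library, a lack of overlap shown in the same direction by 13.5% of all genes tested, with a log2 fold change of 0.57 (SE 0.60, adjusted p = 0.702, edgeR with Benjamini-Hochberg adjustment). With both agents against EZH2i it was 0.22 (SE 0.51, adjusted p = 0.928), and the interaction was -0.35 (SE 0.78, adjusted p = 1.00). The group means ran from both agents through EZH2i and IFN-γ to Ctr, and the 2 groups with the inhibitor overlapped.

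**Figure D4:**
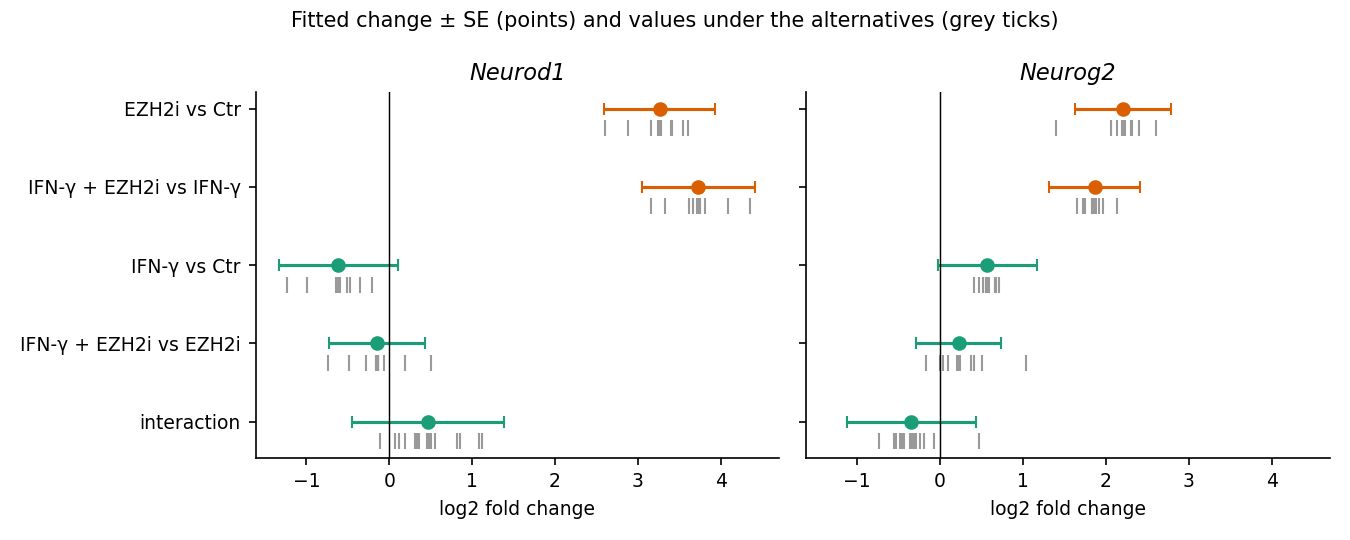
Fitted log2 fold changes of Neurod1 and Neurog2 with their SE (points and bars, edgeR) in the 5 contrasts, with grey ticks for the values under each alternative. All ticks of both inhibitor contrasts lie above 0, and those of both agents against EZH2i fall on either side of 0.

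Neurog1, a relative of Neurog2 that specifies sensory neurons, was below the filter. It had 2, 0 and 4 reads in Ctr and 9, 2 and 10 in EZH2i, then 6, 5 and 8 with IFN-γ and 15, 6 and 6 with both agents. The groups with and without the inhibitor overlapped, and the sums were 25 reads without and 48 with it. Each IFN-γ library was higher than each Ctr library in CPM (0.153 ± 0.0423 against 0.0463 ± 0.0401), as were 13.5% of the genes past the filter. In the edgeR fit without the filter the log2 fold change was 1.43 (SE 0.90, adjusted p = 0.602, Benjamini-Hochberg).

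The other 6 members were near the detection limit of 3 counts in a library (0.0455 to 0.169 CPM, depending on depth). Together they had 2 reads in the 6 libraries without EZH2i and 42 in the 6 with it. Atoh1 made up 19 of the latter, with 8, 0 and 5 reads in EZH2i and 2 in each library with both agents, against 1 read without the inhibitor, in IFN-γ replicate 1. Neurod4, which acts in early neuronal differentiation of retina and hindbrain, had at least 1 read in every library with the inhibitor, namely 1, 2 and 1 in EZH2i and 2, 4 and 1 with both agents, and 1 read in Ctr replicate 3.

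The remaining 4 genes had no read without the inhibitor and few with it. Neurod2, a factor of maturing excitatory neurons, had 4 reads in replicate 2 and 1 in replicate 3 of the combined group. Neurog3, the determinant of endocrine cells in pancreas and gut, had 2 reads in replicate 3 of EZH2i and 2 in replicate 3 of the combined group, all assigned to 1 of its 3 annotated transcripts. Ptf1a had 1 read in each of EZH2i replicates 1 and 2. Neurod6, a factor of cortical pyramidal neurons, had a single read, in replicate 3 of the combined group. At such counts no fold change is given. The edgeR fit without the filter on low counts called none of the 6 members near the detection limit, and a count of 0 allows up to the 3 counts named above.

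Each member, including those below the filter, was also compared by exact permutation of the inhibitor label among libraries of the same IFN-γ condition (400 arrangements, two-sided, on log2(CPM + 0.5)). Neurod1 (mean difference 2.37) and Neurog2 (1.05) both reached an exact p = 0.005, the smallest value possible. Neurod4 gave p = 0.01 (difference 0.14) and Atoh1 gave p = 0.02 (0.22), Neurog1 gave 0.075, and the other 4 gave 0.4 or more in this exact test. An exact p under 0.05 in the direction of higher expression was reached by 5.43% of all 31994 genes with a read, and by 1.8% of those below the filter, many of which have too few reads to reach it. After Benjamini-Hochberg adjustment of the exact p over those 31994 genes, none of the 9 passed (0.197 for Neurod1 and Neurog2, 0.272 for Neurod4, 0.363 for Atoh1).

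The bHLH partners of these factors were expressed at high levels and did not pass the test. In the inhibitor comparisons without and with IFN-γ, 0.405% and 0.347% of all genes tested were called higher. At these shares, 0 calls in a short list say little about its genes, here and in the lists below. Of the 3 E proteins, Tcf3, Tcf4 and Tcf12, 0 were called in either inhibitor comparison, with levels in Ctr of 95.4, 404 and 418 CPM and a median log2 fold change of -0.11 without and -0.13 with IFN-γ (all genes: 0.01 and -0.01). Of the 4 ID genes, 0 were called, and Id4 came nearest, at 31.1 ± 3.81 CPM in Ctr and 49.8 ± 8.99 in EZH2i (adjusted p = 0.139), and 34.5 ± 2.85 with IFN-γ against 60.7 ± 9.43 with both agents (adjusted p = 0.0732, edgeR with Benjamini-Hochberg adjustment). The ID list had a median log2 fold change of 0.24 and 0.13.

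Repressors and genes of the Notch pathway were not called with the inhibitor either. Of 9 HES and HEY genes 5 were tested, and of the 9 Notch ligands and receptors all were tested, and 0 of each list were called with the inhibitor in either condition. With 0.405% and 0.347% of all genes called higher without and with IFN-γ, 0 calls say little about these lists. Hes5, a direct Notch target, was at 28.9 ± 9.82 CPM in Ctr and 22.8 ± 9.89 in EZH2i (adjusted p = 0.974). The ligand Jag1 was at 98.3 ± 8.13 and 156 ± 7.25 CPM (adjusted p = 0.0566). The medians were 0.13 and 0.20 for the repressors and -0.02 and 0.09 for the Notch genes, without and with IFN-γ.

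Among 17 other bHLH factors, OLIG-related genes among them, 7 were tested and 0 were called. The share of all genes called higher was 0.405% without and 0.347% with IFN-γ. Bhlhe22, a factor of cortical projection neurons and spinal interneurons, showed the largest difference of these, with 0.395 ± 0.0979 CPM in Ctr and 2.91 ± 1.06 in EZH2i (log2 fold change 2.82, adjusted p = 0.0562), and 1.06 ± 0.659 against 5.18 ± 2.86 under IFN-γ (2.31, adjusted p = 0.108, edgeR with Benjamini-Hochberg adjustment). Olig2 stood at 495 ± 155 and 382 ± 83.3 CPM in Ctr and EZH2i (adjusted p = 0.858).

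Of 12 factors that act downstream of neurogenins and NeuroD in neuronal differentiation, 11 were tested. The COE-family factors Ebf2 and Ebf3 rose with EZH2i without IFN-γ, and Ebf3 also rose with it. Ebf3 went from 0.458 ± 0.106 to 8.42 ± 3.77 CPM (log2 fold change 4.22, adjusted p = 0.00616) and from 1.05 ± 0.656 to 10.1 ± 4.25 (3.29, adjusted p = 0.0185), and Ebf2 from 0.0834 ± 0.0419 to 0.975 ± 0.116 (3.48, adjusted p = 0.0487, edgeR with Benjamini-Hochberg adjustment). Ebf2 reached the level that the filter asks for in 1 library without the inhibitor, so it was tested only because of its level with it, whereas Ebf3 reached it in all 12. The remaining 9 and 10 tested genes were not called, among them Insm1, a general factor of neuroendocrine and neuronal precursors, at 2.59 ± 0.865 and 2.37 ± 0.792 CPM in Ctr and EZH2i. The list medians were 0.09 and -0.05.

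Of 16 factors of the ATOH1 and PTF1A lineages, 11 were tested. Tfap2b, which follows PTF1A in inhibitory interneurons, rose from 0 reads in Ctr to 1.08 ± 0.789 CPM in EZH2i (adjusted p = 0.0477), and from 0.0341 ± 0.0189 to 3.58 ± 2.33 CPM under IFN-γ (adjusted p = 0.0249). Tfap2a, its paralog, rose under IFN-γ, from 0.0993 ± 0.0603 to 3.32 ± 3.08 CPM (adjusted p = 0.0382), and was at 0.0306 ± 0.0285 and 0.709 ± 0.448 CPM without it (adjusted p = 0.121, edgeR with Benjamini-Hochberg adjustment). Both genes reached the level of the filter in 0 libraries without the inhibitor and in 6 with it, so they too were tested only because of their level with it. Rbpj, the partner of PTF1A and Notch effector, was at 56.0 ± 3.0 CPM in Ctr and 48.8 ± 1.92 in EZH2i (adjusted p = 0.833). The other tested genes, 10 and 9, were not called, and the list medians were 1.00 and 1.03 (all genes: 0.01 and -0.01). Those medians include Tfap2a and Tfap2b, and genes that passed the filter only through the inhibitor raise them by selection. No gene of any of these lists was called lower with the inhibitor. Of all 18995 genes tested, 0 were called lower without IFN-γ and 1 with it, so this is not particular to the lists.

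**Figure D5:**
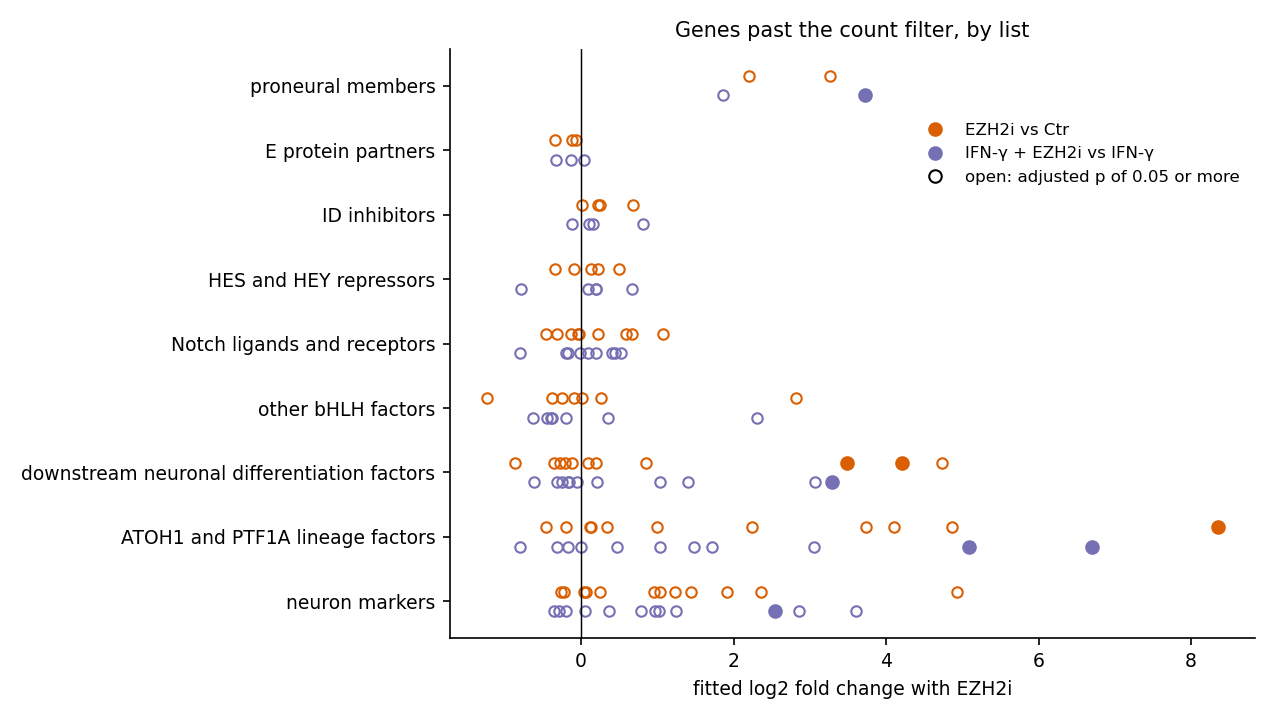
Fitted log2 fold change with EZH2i (x axis) of each tested gene, by list (rows), without IFN-γ (orange) and with it (violet), filled where the adjusted p was under 0.05 in edgeR. E proteins, ID, HES and HEY, and Notch genes lie within 1.1 of 0. Neurod1, Neurog2, Ebf3 and Tfap2b lie at 1.86 or more. Other genes in the lists of Ebf3 and Tfap2b lie near or below 0, such as Insm1 (-0.12) and Gsx1 (-0.46) without IFN-γ. Neurog2 and Tfap2b were tested only because of their level with the inhibitor.

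Neuronal markers were examined beside the proneural genes. Of 12 neuronal markers, 0 were called with EZH2i alone and 1, Stmn2, rose under IFN-γ, from 0.855 ± 0.104 to 5.03 ± 2.06 CPM (adjusted p = 0.0321, edgeR with Benjamini-Hochberg adjustment). The median log2 fold change of the list was 1.00 and 0.88 (all genes: 0.01 and -0.01). Slc17a6, at 0 CPM in Ctr and 0.0289 with IFN-γ, passed the filter only through libraries with the inhibitor. Genes that passed in this way raise the median by selection. Their summed TPM was 50.3 to 51.6 in Ctr, 61.8 to 98.3 in EZH2i, 328 to 636 with IFN-γ and 392 to 783 with both. With IFN-γ against Ctr, 3 of the 12 markers were called higher, as were 6.65% of all genes. They were Tubb3 (log2 fold change 5.10, adjusted p = 1.24e-06), Stmn2 (2.85, adjusted p = 0.00372) and Syt1 (2.03, adjusted p = 0.000615, edgeR with Benjamini-Hochberg adjustment). Without Tubb3 alone, a split made after seeing the values, the ranges were 39.2 to 42.1, 47.3 to 77.5, 39.6 to 90.6 and 40.0 to 95.2 TPM, with medians of 40.0, 57.4, 84.1 and 64.3. The ranges with and without the inhibitor thus overlapped under IFN-γ and did not overlap without it. No marker was at 0 reads in all libraries, though Slc17a6 had none in Ctr. Whether neurons in the cultures had a part in the proneural counts was not tested.

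By correlation of log2(CPM + 0.5) over the 12 libraries with 14680 genes of at least 1 CPM on average, the genes most like Neurod1 were Isl2 (r = 0.981), Vax2 (0.980) and Tlx1 (0.980), all homeobox genes. Those most like Neurog2 were Capn2 (0.947), Col5a2 (0.942) and 1600012H06Rik (0.909), and those most like Neurog1 were Pax3 (0.933), Foxd2 (0.924) and St6gal1 (0.888). Neurod1 and Neurog2 correlated at 0.803, Neurog2 and Neurog1 at 0.732, and Neurod1 and Neurog1 at 0.636. These values describe 12 libraries that share cultures and treatment, with no test. Capn2, at 99.8 CPM in Ctr and 118 in EZH2i, is far more abundant than Neurog2. The correlation shows how log levels vary together across libraries, not the size of the difference.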

How the data were processed

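RNA was measured in 12 libraries (4 groups of 3) from stranded total RNA. Per the labels, the authors quantified reads with Salmon 0.8.2, and deposited for each transcript an estimated count (read pairs before scaling) and a TPM value (scaled by length and library). Deposited DESeq2 tables of the authors' own comparisons, with fold changes and p-values, were not used. Processing notes also name STAR and the builds mm10 and GRCm38.

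For this re-analysis, transcripts (141862 per library, all matched) were assigned to genes of the GENCODE vM21 annotation of GRCm38, and the deposited estimated counts were summed and rounded. Counts were tested in R 4.3.3 with edgeR 4.0.16 (TMM, default filter, quasi-likelihood) in 1 fit of the 12 libraries, with group as the only term and Benjamini-Hochberg adjustment over 18995 genes, at a threshold of 0.05. Library totals ranged 3.82-fold, so that 1 read weighs most in the shallowest library, and floors of 3 counts cover counting error only. The tests were repeated with DESeq2 1.42.0, with RLE factors, unfiltered, on genes with 10 or more counts in all samples, with a block for the replicate number, with length-scaled TPM, with just the libraries compared, and with each library left out. A pseudocount of 0.1 in place of 0.5 CPM, deposited TPM, and each replicate number left out were alternatives for the permutation test. The fit of only the compared samples with the block was added after seeing the data. The fits were also run on simulated counts with no replicate effect and with changes only in genes above 1 CPM on average. Such a simulation does not cover members as low as Neurog2.

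Libraries of the same replicate number deviated together from their group means between IFN-γ and both agents (lowest correlation 0.493) and between EZH2i and both agents (0.496), so that the number was taken to pair them. Those with Ctr had a correlation as low as 0.0134, with Ctr replicate 2, the shallowest library. They were not taken as paired, since every number had to exceed 0.1. For replicates 1 and 3 the correlations with Ctr ran from 0.411 to 0.544. Members and lists were chosen with earlier results of these data known. By rule the text names all 9 members, at most 4 called genes of each context list, Olig2, Sox10 and Ezh2, and the 3 genes most correlated with each of the 3 most abundant members. 1 further gene of the rule is not reported here. Other genes of the lists (the E proteins, Id4, Hes5, Jag1, Bhlhe22, Insm1, Rbpj, Stmn2, Syt1, Tubb3 and Slc17a6) were chosen as examples after their values were seen. Salmon divides reads shared by transcripts, so counts in overlapping genes are estimates. Sequences are from RefSeq. Chromatin data were not analysed here.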

Additional observations from a re-analysis of the deposited data

How the results depend on the processing

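Without IFN-γ, 0 members and 77 genes were called for EZH2i. The counts of members and genes were 2 and 331 with DESeq2, 1 and 121 without the filter, and 2 and 771 with a replicate block (adjusted p = 3.35e-05 for Neurod1 and 0.0150 for Neurog2, edgeR with Benjamini-Hochberg adjustment), although the number was not taken to pair the libraries of this comparison (17 of 18 same-number pairs over all groups correlated best with their own number). Genes called were 29 at 10 or more counts in every sample, 48 with length-scaled TPM and 33 with only the compared samples. With IFN-γ, 1 member and 67 genes were called. No member and 11, 30 and 7 genes were called with at least 10 counts in every sample, with length-scaled TPM and with only the compared samples. DESeq2 called 281 genes, the replicate block 2 members and 748 genes, and the block on only the compared samples 2 members and 1718 genes. For IFN-γ against Ctr (1663 genes), and for both agents against EZH2i (1533), the block gave 4032 and 3661, and 3360 for the latter with only its samples. The cause of these shifts was not tested. With 1 library left out, EZH2i counts ranged from 11 to 83 genes without IFN-γ and 0 to 0 members, and from 10 to 65 genes and 0 to 1 members with it, with the lowest counts without Ctr replicate 3 and without IFN-γ replicate 2. IFN-γ counts ranged from 1111 to 1710 and from 1078 to 1566.

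The difference between both agents and EZH2i, not called in any fit, changed sign for Neurod1 (range -0.73 to 0.51 with 1 library left out) without EZH2i replicate 1 (0.51) and without replicate 3 of the combined group (0.19), and for Neurog2 (range -0.17 to 1.04) without EZH2i replicate 2 (-0.17) and without replicate 3 of the combined group (-0.0012). The interaction changed sign for Neurog2 (range -0.74 to 0.47) without EZH2i replicate 1 (0.47) and for Neurod1 (range -0.11 to 1.12) without replicate 1 of the combined group (-0.11). All alternatives kept both inhibitor effects of Neurod1 and Neurog2 positive. Leaving out a replicate number leaves 36 arrangements, whose smallest exact p is 0.0556, so no permutation call is possible there. The differences then ranged from 2.09 to 2.58 for Neurod1, 0.82 to 1.28 for Neurog2, 0.098 to 0.20 for Neurod4, 0.13 to 0.28 for Atoh1, 0 to 0.055 for Neurog3 and 0 to 0.017 for Neurod6, the last pair at 0 without replicate 3. Members under 1 CPM are limited by depth, and 7 of the 9 could not be tested in the filtered fit. Genes of the context and marker lists were reported from the group-only fit alone.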
